A study of Mus with 4 samples.

Results

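N6-methyladenosine (m6A) is written on adenosines of mRNA by a complex in which METTL3 is the catalytic subunit and WTAP holds the complex together at nuclear speckles. In MeRIP-seq, fragments of poly(A)+ RNA are pulled down with an antibody against m6A, and a peak is a stretch of transcript where immunoprecipitated (IP) reads exceed what the input predicts. A peak is therefore wider than any methylated base in it, and a long peak can span several methylated sites that lie close together. Brown adipocytes of the interscapular brown adipose tissue (iBAT) burn fatty acids for heat through UCP1, under the control of PPARγ, C/EBPβ, PRDM16 and their cofactors.

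Described here are the 1118 control peaks, of 18400 in the *Wtap*flox/flox list, whose exonic blocks share at least 1 base on the same strand with 2 or more peaks of the *Wtap*-BKO list. They were chosen by this overlap, which is itself a measured result, so the overlap is a description and carries no test. The share of the list is 6.08% (95% Wilson interval 5.74% to 6.43%). For comparison, 950 of 18693 *Wtap*-BKO peaks (5.08%, interval 4.78% to 5.41%) met the same rule against the *Wtap*flox/flox list. All intervals given here cover counting error only.

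The mice were C57BL/6 and 8 weeks old, and the groups differ in 1 allele. The control genotype was *Wtap*flox/flox, and the knockout, called *Wtap*-BKO, was *Wtap* flox/flox with UCP1-iCre. Both groups thus carry the floxed alleles, in which exon 4 of *Wtap* can be cut out. The iCre is read from an IRES in the *Ucp1* gene, so the deletion is limited to cells that use that gene, and the other cells of the tissue keep *Wtap*. For either genotype 1 IP was set against 1 input, both pools of 8 mice, and the authors' threshold for a peak was a false discovery rate of 0.05. With 1 pooled sample a group there is no replicate error, no difference between genotypes was tested, and the read depth behind the lists is unknown. Absence from a list says only that nothing there passed that threshold. All 20 brown adipocyte marker genes looked for had a control peak, and 19 had a *Wtap*-BKO peak. A peak does not measure how much RNA is present, and in a whole tissue fewer cells of a type and less RNA per cell cannot be told apart. Positions are given on GRCm38.

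The rule takes in more than peaks that came apart. In 633 of the 1118 control peaks the *Wtap*-BKO peaks beneath covered separate stretches with at least 1 uncovered base between them. Only these are called broken below, a distinction made after the data were seen. They are 3.44% of the control list (interval 3.19% to 3.71%) and lie on 597 gene symbols. In the other 485 peaks (43.4% of the 1118), the *Wtap*-BKO entries beneath overlapped or touched one another and covered a single stretch, and 308 of these had an entry of another gene identifier among them. In the opposite direction 427 *Wtap*-BKO peaks (2.28%, interval 2.08% to 2.51%) were broken over control peaks, on 405 gene symbols, and 523 were stacked. The broken class was therefore 1.48 times as large in the control list, although that list is the shorter of the pair.

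*Ntrk3*, which encodes the neurotrophin receptor TrkC, shows a stack. Its control peak at chr7:78190474-78191163 lies over *Wtap*-BKO peaks of 151 and 150 bases that start 1 base apart, at 78190714 and 78190715, so that a single stretch of 21.9% of the peak was covered. The same holds for *Rbm15b*, whose protein is a partner of the m6A writer. Its control peak of 564 bases at chr9:106884751-106885501 was covered in full by each of 2 overlapping *Wtap*-BKO peaks. Neither peak was broken.

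Of the 633 broken control peaks, 592 were in 2 stretches, 33 in 3 and 8 in 4. Of the 427 broken *Wtap*-BKO peaks, 410 were in 2 stretches, 14 in 3 and 3 in 4. All pieces carried the gene identifier of the parent in 600 of the 633, and in 534 the pieces touched no other control peak. A listed peak on the opposite strand overlapped 66 of the 633, and 23 of the 427 broken *Wtap*-BKO peaks. Without peaks of this kind, 567 control and 404 *Wtap*-BKO peaks were broken. Whether the libraries kept strand is not stated, so the strand of a peak is that of its annotated gene. When overlapping entries of each list were first merged into regions, 559 control regions lay over several *Wtap*-BKO regions, 363 *Wtap*-BKO regions lay over several control regions, and 10791 pairs were 1 to 1. The control direction made up 60.6% of the 922 regions split one way only (interval 57.4% to 63.7%).

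Longer peaks were broken more often. A longer peak has more room for several pieces and a gap, and how much of the climb goes with this was not tested. The median broken control peak had 750 exonic bases, and the median of all control peaks was 240. Under 150 bases 0.133% of control peaks were broken, from 150 to under 300 bases 0.278%, and from 300 to under 600 bases 2.94%. From 600 to under 1200 bases the share was 21.1% (350 of 1659, interval 19.2% to 23.1%), and at 1200 bases and over it was 50% (102 of 204, interval 43.2% to 56.8%). *Wtap*-BKO peaks followed the same climb, with 2.81% from 300 to under 600 bases, 16.3% from 600 to under 1200 (interval 14.3% to 18.5%) and 47.1% at 1200 and over (interval 39.3% to 54.9%). Only in the class from 600 to under 1200 bases did the intervals of the genotypes not overlap. The control list held 1863 peaks of 600 bases or more and the *Wtap*-BKO list 1358, so part of the gap between 633 and 427 went with the number of long peaks. Of these long peaks, 24.3% were broken in the control list and 19.7% in the *Wtap*-BKO list. Under the wider rule of 2 or more entries beneath, the class of 1200 bases and over ran the other way, with 52.0% in the control and 53.6% in the *Wtap*-BKO list.

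**Figure D1:**
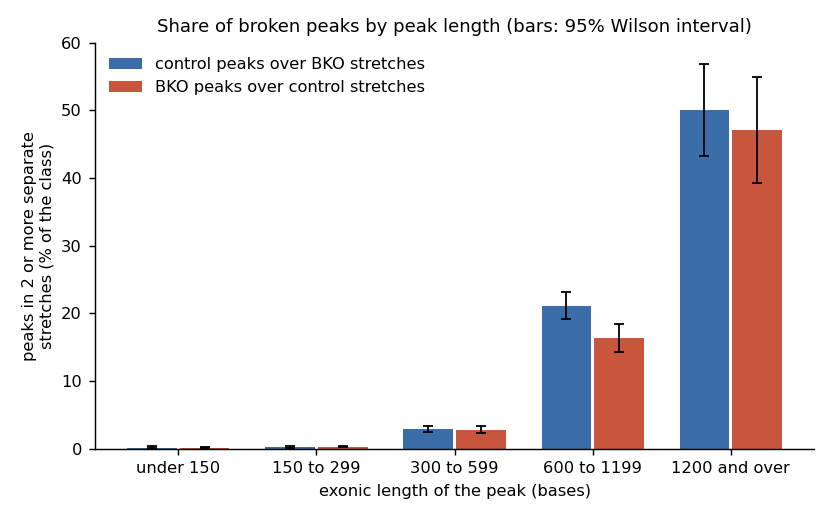
The plot gives, for 5 classes of exonic peak length in bases, the percent of peaks in 2 or more separate stretches, for control peaks (blue) and *Wtap*-BKO peaks (red), with 95% Wilson intervals. Both series stay under 3% below 600 bases and reach 50% and 47.1% at 1200 bases and over.

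Peaks were ranked within their own list by false discovery rate and given a percentile, in which 100 is the strongest. Fold enrichments were ranked in the same way, since how they were scaled is not stated and those of the lists share no known scale. Among long control peaks (600 bases or more), 23.8% of those in the strongest of 5 equal rank classes were broken (interval 21.6% to 26.3%), 25.5% in the next class and 25% in the middle class. In the *Wtap*-BKO list these shares were 17.1% (interval 14.9% to 19.5%), 29.4% (interval 24.3% to 35.1%) and 19.2%. The *Wtap*-BKO intervals of the strongest class and the next did not overlap. The control share was the higher in the strongest class, where the intervals of the genotypes did not overlap. In the next class the control share was the lower, but its interval (21.8% to 29.6%) overlapped that of the *Wtap*-BKO share. From 600 to under 1200 bases, broken control peaks had a median false discovery rate percentile of 84.8, and those over a single *Wtap*-BKO peak 86.7.

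Most long control peaks were found again in 1 piece. Of the 1863, 1270 lay over 1 *Wtap*-BKO peak, 452 were broken, 74 lay over none and the rest lay over stacked entries. The pieces of a broken control peak covered a median of 72.2% of its bases (25th percentile 58.1%, 75th percentile 82.1%), and for broken *Wtap*-BKO peaks the median was 73.9%. The broken peak of *Tusc5*, a gene of adipocytes, stood near the upper end, with 86.2% covered and 88 bases open between stretches of 715 and 388 bases. That of *Hp*, which encodes haptoglobin, stood near the lower end, with 54.3% covered and 237 bases open.

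The open stretches had a regular size. There were 682 gaps in the 633 broken control peaks, with a median of 119 bases, a 25th percentile of 88 and a 75th of 208. The commonest gap was 59 bases, found 122 times, and 87.1% of all gaps were 1 or 2 bases short of a multiple of 30. The sizes thus follow a grid of 30 bases on which peak ends were set, and the commonest gap is near the small end of it. In the *Wtap*-BKO direction the median of 447 gaps was also 119 bases, and 59 was again the commonest (90 times). Gaps of 200 bases or more made up 26.7% in the control direction (interval 23.5% to 30.1%) and 20.1% in the *Wtap*-BKO direction (interval 16.7% to 24.1%), and these intervals overlap.

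**Figure D2:**
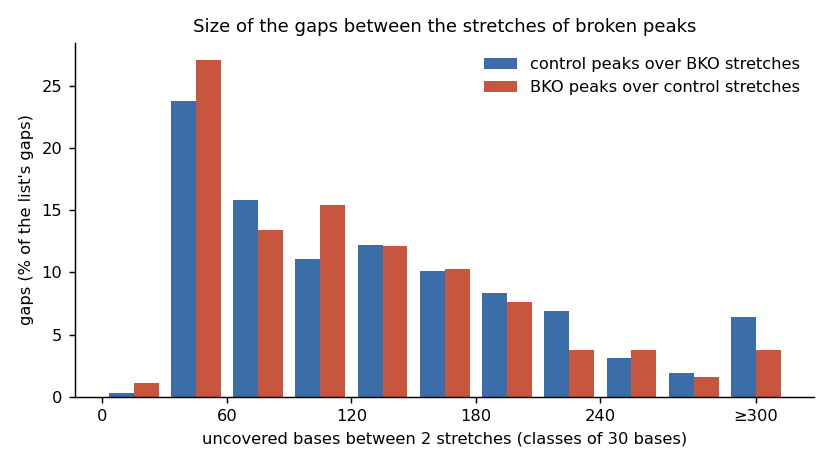
The plot gives the percent of gaps in classes of 30 uncovered bases, for 682 gaps in broken control peaks (blue) and 447 in broken *Wtap*-BKO peaks (red), with gaps of 300 bases or more in the last class. The class from 30 to 59 bases is the fullest, at 23.8% and 27.1%, and the last class holds 6.45% and 3.80%.

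The rule let in pieces that only touched the parent. In 51 of the 1118 control peaks the smallest shared length was exactly 1 base, and in 61 it was under 30 bases. Just outside the rule, 58 control peaks over 1 *Wtap*-BKO peak had a further one within 30 bases of an end. *Acaca* encodes acetyl-CoA carboxylase, the enzyme that makes malonyl-CoA for fatty acid synthesis. Its strong control peak met the rule only through 1 shared base. It lies at chr11:84400752-84401202, and the first *Wtap*-BKO peak ends at its first base, 84400752. The second *Wtap*-BKO peak, of 241 bases, lies inside it and covers nearly all of the 53.7% found. For *Ppara*, which encodes a fatty acid-sensing nuclear receptor, the control peak at chr15:85802100-85802819 also shares only its first base with a *Wtap*-BKO peak of 301 bases, and 538 bases separate that base from the other piece. The same shared base puts this *Wtap*-BKO *Ppara* peak among those broken over control peaks. With at least 30 shared bases a piece, 585 control and 379 *Wtap*-BKO peaks were broken.

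Neither end of the peak was favoured. The pieces left the 5′ end of the parent open in 44.9% of the broken control peaks (interval 41.0% to 48.8%) and the 3′ end in 48.0% (interval 44.2% to 51.9%), and covered both in 31.6%. Broken *Wtap*-BKO peaks had both ends covered more often, in 41.9% (interval 37.3% to 46.7%). Of the 592 control peaks in 2 stretches, the 3′ piece had the higher fold enrichment of IP over input in 293 and the 5′ piece in 296. The higher was a median of 1.58 times the lower, and in 191 of the 592 (32.3%, interval 28.6% to 36.1%) it was at least 2 times. In the *Wtap*-BKO direction the median was 1.93 times and the share 47.1% (interval 42.3% to 51.9%). Along the peak, coverage of broken control peaks over 10 equal segments was 80.1% in segment 2 from the 5′ end, 57.0% in segment 5 and 80.2% in segment 9, a dip that the definition of a gap puts there. Long control peaks over a single *Wtap*-BKO peak had 88.3% in segment 5 and 55.3% and 54.5% in the outermost segments. A single piece can leave bases open mostly at the ends, so this shape too is largely set by the definition.

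**Figure D3:**
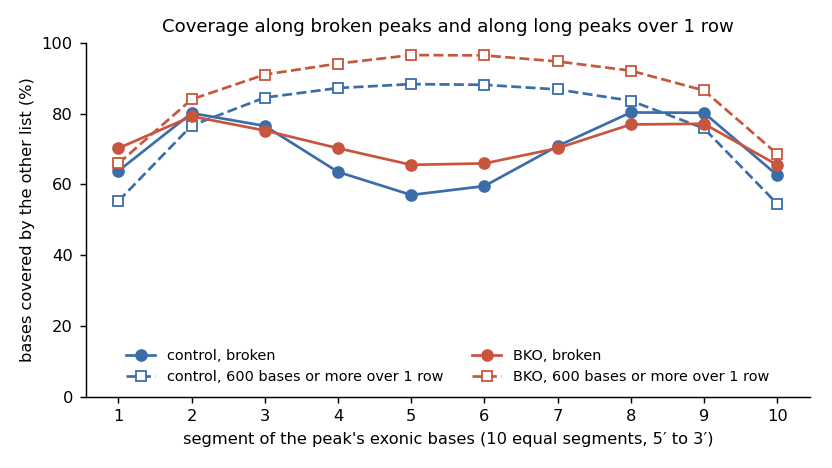
The plot gives the mean percent of bases covered by the other list in each of 10 equal segments of a peak, from 5′ to 3′, for broken peaks (filled points) and for peaks of 600 bases or more over 1 peak (open points) of the control (blue) and *Wtap*-BKO (red) lists. Broken control peaks fall to 57.0% in segment 5, and the single ones reach 88.3% there. Both shapes are largely set by how the peaks were chosen.

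The pieces stood lower in their own list than the parent did in its list. The median broken control peak had a false discovery rate percentile of 82.4, and its strongest *Wtap*-BKO piece, which is the one with the smallest false discovery rate, had 75.5. The fold enrichment percentiles of the same parents and pieces had medians of 67.5 and 53.8. The strongest piece ranked lower by false discovery rate in 65.6% of the 633 (interval 61.8% to 69.2%) and by fold enrichment in 72.4% (interval 68.7% to 75.7%). With the piece of highest fold enrichment in its place, a choice made after the data were seen, the median was 57.6 and the share 68.6% (interval 64.8% to 72.1%). From 600 to under 1200 bases, the share lower by false discovery rate was 71.7% for broken control peaks and 50.7% for control peaks over a single *Wtap*-BKO peak. By fold enrichment these shares were closer, 76.0% and 64.8%, and the first was 72.9% with the piece of highest fold enrichment. The strongest control piece ranked lower than its broken *Wtap*-BKO parent by false discovery rate in 74.9% (interval 70.6% to 78.8%) and by fold enrichment in 62.5% (interval 57.8% to 67.0%), or 59.3% with the piece of highest fold enrichment. From 600 to under 1200 bases, the strongest control piece ranked lower by false discovery rate than its parent for 80.1% of the broken *Wtap*-BKO peaks. For *Wtap*-BKO peaks of that length over a single control peak, the share was 68.0%. By fold enrichment these shares were 64.3% and 50.3%. A piece is shorter than its parent, with a median of 270 bases for the strongest piece in each stretch, and how much of the drop goes with length was not tested.

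**Figure D4:**
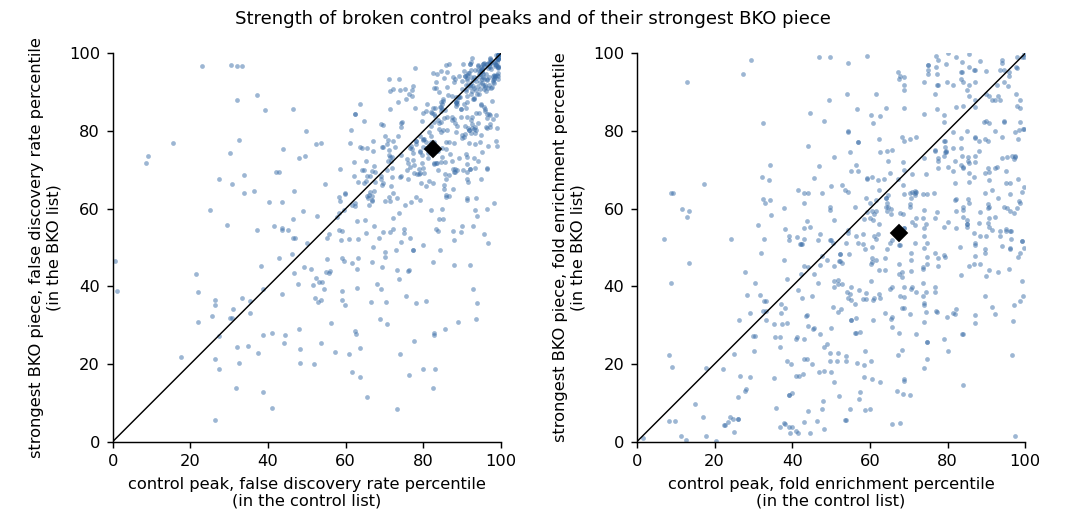
Each point is 1 of the 633 broken control peaks, with its percentile in the control list on the horizontal axis and that of its *Wtap*-BKO piece of smallest false discovery rate in the *Wtap*-BKO list on the vertical axis, for false discovery rate (left) and fold enrichment (right); the line marks equal percentiles and the diamond the medians. The medians lie below the line, at 82.4 and 75.5 on the left and 67.5 and 53.8 on the right.

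The 10 strongest broken control peaks whose pieces touched no other control peak lay on *Cebpb*, *Hp*, *Acaca*, *Acsl1*, *Plin4*, *Nfe2l1*, *Arl4a*, *Klhdc7a*, *Ywhag* and *Tusc5*. The smallest p-value among them was that of *Cebpb*, which encodes the transcription factor C/EBPβ. Its control peak spans 1357 bases at chr2:167689033-167690389, with a fold enrichment of 18.2, above 90.5% of control peaks. In its place stood 2 *Wtap*-BKO peaks, of 384 bases with a fold enrichment above 19.4% of *Wtap*-BKO peaks and of 856 bases with one above 60.3%. They reached both ends of the parent and left 117 bases open, so that 91.4% was covered. By false discovery rate these pieces stood above 97.8% and 99.6% of their list, and the parent above 99.2% of control peaks.

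*Plin4*, which encodes a coat protein of lipid droplets, had a control peak of 3024 bases in 2 blocks at chr17:56103766-56107362. It was in 3 stretches in *Wtap*-BKO mice, of 899, 719 and 929 bases from the 5′ end, with 208 and 59 bases between them. Their fold enrichments of 4.26, 2.25 and 3.78 were above 45.8%, 13.7% and 39.7% of *Wtap*-BKO peaks, and that of the parent, 11.9, was above 74.8% of control peaks. The middle stretch was the weakest of the 3. By false discovery rate the pieces stood above 99.5%, 93.5% and 99.2% of their list, and the parent above 99.2% of control peaks.

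*Acsl1*, which encodes a long-chain acyl-CoA synthetase that hands fatty acids to oxidation and storage, lost more of its peak. Of 1049 bases at chr8:46533611-46535362, the pieces of 360 and 150 bases covered 48.6%, and 419 bases lay open between them. Their fold enrichments of 1.55 and 1.42 were above 2.23% and 1.04% of *Wtap*-BKO peaks, and the parent's 5.40 was above 41.5% of control peaks. By false discovery rate the pieces still stood above 94.2% and 89.8% of their list. *Elovl6*, for a fatty acid elongase, had a parent above 24.1% of control peaks by fold enrichment. Its pieces stood above 3.34% and 6.47% of the *Wtap*-BKO list by fold enrichment and above 83.8% and 87.6% by false discovery rate.

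*Nfe2l1*, which encodes a transcription factor of proteasome genes, had a control peak of 1825 bases in 3 stretches. The stretch at the 3′ end held 1227 bases with a fold enrichment of 7.76, and the others had 1.57 and 1.46. *Arl4a*, for a small GTPase, kept 64.2% in 2 stretches with 209 bases between them and another 209 bases open at the 3′ end. *Ywhag*, for a 14-3-3 protein, kept 77.6% in stretches of 300 and 420 bases. In these 3 genes the piece nearest the 3′ end had the smallest false discovery rate, in *Acsl1* and *Tusc5* the 5′ piece did, and over the 592 control peaks in 2 stretches the 3′ piece did in 313 (52.9%, interval 48.8% to 56.9%).

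The control peaks in 4 stretches numbered 8. They lay on *Pogk*, *Spata2*, *Luzp1*, *Klhdc7a*, *Ctdspl*, *Zfp322a*, *Ano6* and *Gas1*, and had between 1470 and 3682 bases. The *Klhdc7a* peak, of 2154 bases at chr4:139965514-139967667, was open over 178, 268 and 239 bases between pieces whose fold enrichments were 5.37, 2.61, 3.52 and 1.87 from 5′ to 3′. The *Ctdspl* peak, of 1470 bases at chr9:119040549-119042018, had pieces of 151 to 240 bases and 53.3% covered. Its weakest piece stood above 6.74% of *Wtap*-BKO peaks by false discovery rate, and the parent above 93.3% of control peaks. By fold enrichment these were 7.30% and 67.2%. The other pieces stood above 50.5% to 70.5% by false discovery rate. The *Luzp1* peak was the longest of the 633 and kept 87.1%. The *Gas1* peak, of 2034 bases, lay over 7 *Wtap*-BKO entries, several of them nearly the same interval listed again, which made 4 stretches. In the *Wtap*-BKO list, the 3 peaks in 4 stretches were that of *Mpeg1*, a macrophage gene, and 2 overlapping entries of a gene without a symbol.

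**Figure D5:**
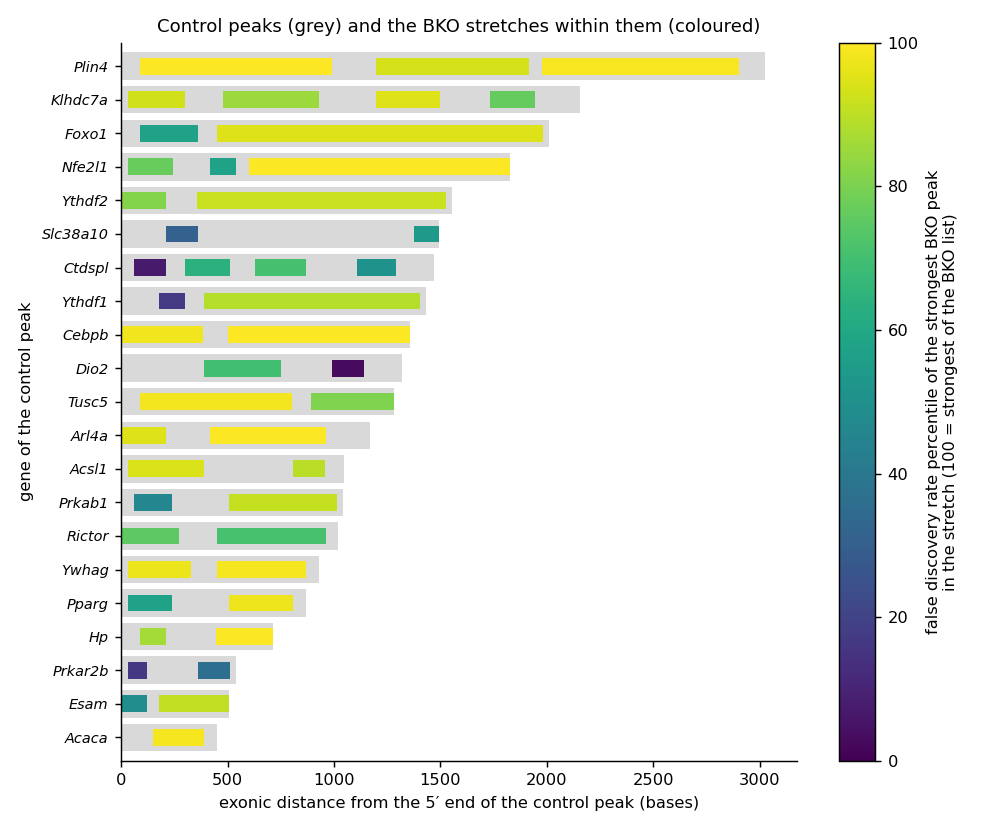
Each grey bar is a broken control peak drawn to scale from its 5′ end in exonic bases, and the coloured bars are the stretches covered by *Wtap*-BKO peaks, with the colour giving the false discovery rate percentile of the strongest *Wtap*-BKO peak there. *Cebpb* keeps 91.4% in 2 strong stretches, *Slc38a10* keeps 18.1%, and the 1-base stretch at the 5′ end of *Acaca* is too thin to see.

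Of the 1118 control peaks, the least covered whose false discovery rate was below 1e-20 was that of *Slc38a10*, which encodes an amino acid transporter. Of 1494 bases at chr11:120104438-120105931, 2 pieces of 151 and 120 bases covered 18.1%, and the 1014 bases between them made the largest gap in the control list. The parent stood above 89.7% of control peaks by false discovery rate, and the pieces above 30.6% and 54.1% of *Wtap*-BKO peaks. The next 4 in this order were stacks, those of *Ntrk3* and *Mab21l2*, each listed as 2 nearly equal control entries.

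Some entries share their place with another gene. The control peaks of *Phospho1*, which encodes a phosphatase that is high in brown fat, and of *Zfp652* cover the same stretch, at chr11:95830619-95832080 and chr11:95830617-95832086. Each lay over the same 4 *Wtap*-BKO entries, a pair for either gene, which made 2 stretches with 385 bases between them. By fold enrichment each control entry stood above 26.0% of its list, and the 4 entries beneath above 5.80% or 5.97% of theirs. By false discovery rate the control entries stood above 99.2%, and those beneath above 94.2% or 96.4%. *Galnt2* and *Gm20388* likewise share 1 peak. Which gene such a peak belongs to is uncertain.

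Among transcription factors and cofactors of brown adipocytes, 10 of 35 genes with a control peak had a broken one, against 6.14% of all gene symbols with a control peak (597 of 9718). These were *Cebpb*, *Ehmt1*, *Esrra*, *Foxo1*, *Klf11*, *Ncoa1*, *Nfia*, *Nrip1*, *Ppara* and *Pparg*. The list has many peaks and long ones. By peak it was 10 of 115 (all control peaks, 3.44%), and of its 24 long peaks 7 were broken (all long control peaks, 24.3%). In the *Wtap*-BKO list 6 of 34 genes had a broken peak (*Klf11*, *Med1*, *Nrip1*, *Ppara*, *Prdm16* and *Thra*), against 4.18% of all gene symbols there. By peak it was 6 of 105 (all *Wtap*-BKO peaks, 2.28%), and of 12 long peaks 3 were broken (all, 19.7%).

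*Pparg*, which encodes PPARγ, the master regulator of adipocyte differentiation, had a single control peak, of 866 bases in 2 blocks, and 4 *Wtap*-BKO peaks, 2 of which lay under it. By fold enrichment the parent stood above 28% of control peaks. Its pieces held 210 and 300 bases, 267 bases lay open between them, and 30 and 59 bases were open at the 5′ and 3′ ends. The pieces stood above 0.915% and 13.7% of *Wtap*-BKO peaks by fold enrichment, and the 3′ piece above 97.3% by false discovery rate. *Foxo1*, for a transcription factor restrained by insulin, had the highest fold enrichment of any broken control peak on the listed genes, 82.4 over 2010 bases at chr3:52345061-52347675, above 99.8% of its list. Its pieces stood above 25.3% and 65.6% of theirs, left 89 bases open and covered 89.6%. By false discovery rate they stood above 57.8% and 94.6%, and the parent above 96.1% of control peaks. *Nfia*, for a factor that opens brown fat enhancers, kept 21.0% in 2 pieces above 16.5% and 11.6% of the *Wtap*-BKO list by false discovery rate. By fold enrichment they stood above 13.1% and 10.1%. The parent stood above 63.8% of control peaks by false discovery rate and 27.9% by fold enrichment. *Esrra*, for the nuclear receptor ERRα, kept 70.9% in pieces of similar fold enrichment, 3.89 and 4.36.

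*Prdm16*, which encodes the coregulator that sets brown fat identity, went the other way. Its only *Wtap*-BKO peak, of 1230 bases at chr4:154319451-154320680, lay over 3 of the 8 control peaks of the gene, with 89 and 209 bases between them and 75.8% covered. By fold enrichment the parent stood above 92.7% of *Wtap*-BKO peaks, and the pieces above 71.1%, 56.6% and 71.6% of control peaks. By false discovery rate the parent stood above 74.0%, and the pieces above 70.2%, 38.0% and 79.2%. *Ppargc1a*, *Ucp1* and *Wtap* had no peak that met the rule in either direction.

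*Klf11*, *Nrip1* and *Ppara* were broken in both directions, and there the peaks of the lists were staggered. The control *Klf11* peak at chr12:24655450-24660515 lay over a *Wtap*-BKO peak that ran from 24655091 to 24660186 and over a second one from 24660245 to 24660365. The first of these in turn lay over that control peak and another from 24655091 to 24655361. For *Nrip1*, which encodes the corepressor RIP140, the control peak of 271 bases at chr16:76292828-76293098 bridged 2 *Wtap*-BKO peaks, and the *Wtap*-BKO peak of 811 bases bridged that peak and another control peak of 451 bases. Over all genes 70 had a broken peak in both directions, which is 11.7% of the genes of the control direction and 17.3% of those of the *Wtap*-BKO direction.

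Chromatin and transcription regulators have long transcripts with many peaks, and 12 of 40 genes with a control peak had a broken one (all gene symbols, 6.14%), by peak 13 of 190 (all, 3.44%). Of their 25 long control peaks 8 were broken (all, 24.3%). In the *Wtap*-BKO list 3 of 41 genes had one (all, 4.18%), by peak 5 of 185 (all, 2.28%) and by long peak 2 of 17 (all, 19.7%). Genes of the KMT2 family, which holds histone H3 lysine 4 methyltransferases, were found in both directions. *Kmt2b* had 1 broken control peak, *Kmt2c* 1 and *Kmt2d* 2, and *Kmt2a* had 3 broken *Wtap*-BKO peaks and no broken control peak. *Kmt2e*, which is not on the list, had 2 broken control peaks. *Kmt2b* also had 1 broken *Wtap*-BKO peak, at another place on the gene. The *Kmt2c* case rests on a single shared base, as its control peak ends at 25315425, where a *Wtap*-BKO piece begins. *Kdm6b*, which encodes an H3K27 demethylase, kept 92.0% of 1110 bases, and its 5′ piece of 990 bases had a fold enrichment of 11.9 against 2.64 for the 3′ piece. *Setd1b* kept 42.5% of its peak, and *Med13l* kept 42.0% of 930 bases with a gap of 449 bases.

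Of the genes of lipid storage, lipolysis and fatty acid use, 5 of 37 with a control peak had a broken one (*Acaca*, *Acsl1*, *Elovl6*, *Plin4* and *Scd2*), and 1 of 39 with a *Wtap*-BKO peak (*Cpt1b*). The shares of all gene symbols were 6.14% and 4.18%. By peak these were 5 of 84 and 1 of 83 (all peaks, 3.44% and 2.28%), and of the long peaks 2 of 9 and 0 of 5 were broken (all, 24.3% and 19.7%). The piece with the smallest false discovery rate was low by fold enrichment, above 2.23% to 6.47% of *Wtap*-BKO peaks in 4 of the 5, and above 45.8% in *Plin4*. By false discovery rate the same pieces stood above 27.4% in *Scd2* and above 87.6% to 99.5% in the others.

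Of the m6A writers, erasers and readers, 4 of 16 genes with a control peak had a broken one (all gene symbols, 6.14%), by peak 4 of 51 (all, 3.44%). These were *Alkbh5*, an m6A demethylase, *Cbll1*, a subunit of the writer complex also called HAKAI, and *Ythdf1* and *Ythdf2*, which bind m6A in the cytosol. The 4 were among 7 long control peaks of the list (all long control peaks, 24.3%), and in the *Wtap*-BKO list none of 6 long peaks was broken (all, 19.7%). The only broken *Wtap*-BKO peak, 1 of 49 (all, 2.28%), had 390 bases and lay on *Zc3h13*. The *Ythdf2* peak, of 1554 bases in 2 blocks at chr4:132186705-132205442, kept 88.6% in pieces above 57.7% and 56.1% of *Wtap*-BKO peaks by fold enrichment, and the parent stood above 85.0% of control peaks. By false discovery rate the pieces stood above 81.3% and 91.9%, and the parent above 91.0%. *Ythdf1* kept 79.2% of 1434 bases. Its 5′ piece of 120 bases was weak, above 16.8% of *Wtap*-BKO peaks by false discovery rate, and its 3′ piece of 1016 bases stood above 88.9%.

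Among thermogenic effectors 2 of 18 genes with a control peak had a broken one and none of 15 in the *Wtap*-BKO list (all gene symbols, 6.14% and 4.18%). The list had only 4 long control peaks, 1 of them broken, and 1 long *Wtap*-BKO peak. *Dio2*, which encodes the deiodinase that makes active thyroid hormone in brown fat, kept 38.7% of 1319 bases at chr12:90728598-90729916, with 389 bases open at the 5′ end, 239 in the middle and 180 at the 3′ end. Its 5′ piece had a fold enrichment of 26.2, above 97.7% of *Wtap*-BKO peaks, and its 3′ piece 2.70. By false discovery rate the 3′ piece was stronger than only 3.08% of the list, and the 5′ piece than 69.9%. *Prkar2b*, for a regulatory subunit of protein kinase A, kept 44.8% of 540 bases in pieces above 0.369% and 1.36% by fold enrichment, and its parent stood above 17.8% of control peaks. With pieces under a false discovery rate of 1e-05 neither gene met the rule, with 1 piece left for *Dio2* and 0 for *Prkar2b*. Among insulin and AMPK signalling genes 3 of 31 had a broken control peak (*Foxo1*, *Prkab1* and *Rictor*) and none of 29 a broken *Wtap*-BKO peak. By long peak these were 3 of 14 and 0 of 8 (all, 24.3% and 19.7%). *Prkab1*, for a β subunit of AMPK, kept 65.8% with 267 bases open, and *Rictor*, for a subunit of mTORC2, kept 76.6% with 179 bases open.

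Taken over these 6 lists, 36 of 546 control peaks (6.59%) and 13 of 519 *Wtap*-BKO peaks (2.50%) were broken, where the shares of all peaks were 3.44% and 2.28%. Of their long peaks 24 of 82 (29.3%) were broken in the control and 5 of 48 (10.4%) in the *Wtap*-BKO list, where all long peaks had 24.3% and 19.7%. These genes were listed with results known, and nothing particular to them is drawn from the counts. Markers of other cell types were counted beside them. Over the macrophage, T/B lymphocyte, fibroblast, endothelial and skeletal muscle lists, 1 of 86 control peaks was broken (*Esam*), and 4 of 157 *Wtap*-BKO peaks (*C1qa*, *Lum*, *Erg* and *Flt1*). By peak these are 1.16% and 2.55%, where all peaks had 3.44% and 2.28%. Of their long peaks 0 of 13 were broken in the control and 4 of 23 (17.4%) in the *Wtap*-BKO list (all, 24.3% and 19.7%). The counts are small, and no order of the genotypes is drawn from them. The number of their genes with a peak was 52 in the control and 74 in the *Wtap*-BKO list, with 12 and 18 for macrophages, 5 and 11 for lymphocytes, 16 and 16 for fibroblasts, 12 and 15 for endothelium and 7 and 14 for muscle. Their part in the difference between the directions was not tested.

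On the gene, broken control peaks lay less often at either end than control peaks in general. Of 561 broken control peaks inside genes spanning at least 3000 bp, 15.5% had their centre within 1000 bp of the 3′ end of the gene (interval 12.7% to 18.7%), and of all such control peaks 21.7% did (interval 21.0% to 22.3%). At the 5′ end the shares were 3.57% and 11.4%. Among control peaks of 600 bases or more the difference was smaller, with 13.9% of the broken (interval 10.9% to 17.7%) and 17.7% of those over a single *Wtap*-BKO peak (interval 15.6% to 20.0%) near the 3′ end, and 2.78% and 2.62% near the 5′ end. These intervals overlap. More of the broken control peaks crossed a splice junction, 22.6% against 15.4% of all control peaks (intervals 19.5% to 26.0% and 14.9% to 16.0%), and in the *Wtap*-BKO list 24.4% against 19.8%. Among control peaks of 600 bases or more the shares were 25.2% of the broken (interval 21.4% to 29.4%) and 19.7% of those over a single *Wtap*-BKO peak (interval 17.6% to 22.0%), and these intervals overlap.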

How the data were processed

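MeRIP-seq data of iBAT comprised 4 samples, IP and input of each genotype, from which the authors made 1 peak list per genotype. The methods name MACS2, the layout of the lists is that of exomePeak, and which caller made them is not settled. The submitters' processing notes name fastp 0.19.11, BWA 0.7.12, HOMER 4.9.1 and the build GRCm38.p6. The deposited columns hold a p-value, log10 scores of p and false discovery rate, and a fold enrichment, the ratio of IP to input in that genotype with no stated scaling. Other deposited columns give positions, blocks and gene identifiers. The authors had filtered the lists at a false discovery rate under 0.05.

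Exonic blocks were matched on the same strand in Python 3.11.15 with numpy 2.4.6 and pandas 2.3.3, and drawn with matplotlib 3.10.9. A peak's percentile is its rank within its own list by false discovery rate or fold enrichment, with ties at their lowest rank. Control peaks whose log10 false discovery rate was given as minus infinity thus all have 99.2, and such *Wtap*-BKO peaks 99.6. A control parent of this kind can rank below a *Wtap*-BKO piece with a finite value, as for *Hp*. This bears on the shares that ranked lower by false discovery rate. The 95% Wilson intervals take peaks as independent. The members and the gene lists were chosen with earlier results of these data known. Named peaks are those of *Prdm16*, *Pparg*, *Ppargc1a*, *Ucp1* and *Wtap*, the 10 control peaks with the most pieces, the 10 with the smallest false discovery rate and pieces on no other control peak, the 5 least covered with a false discovery rate under 1e-20, the 5 *Wtap*-BKO peaks with the most control pieces, and 3 per gene list, of which 1 peak is not reported here. Other named genes were picked after their values were seen. Gene ends came from a RefSeq table of GRCm38.p6, which placed 596 of the 633 broken control peaks. Sequences and the GGACU motif were not analysed here. The matching was tested on simulated data.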

Additional observations from a re-analysis of the deposited data

How the results depend on the processing

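The number of control peaks over 2 or more *Wtap*-BKO entries was 1118, and fell to 633 with overlapping entries merged or separate stretches required, 711 with pieces under a false discovery rate of 1e-05, 649 with both lists under it, 546 with pieces on no other control peak and 386 with pieces less than 100 bases apart joined. The 950 in the *Wtap*-BKO direction became 423 (merged), 427 (separate stretches), 614, 520, 361 and 251, and 611 with pieces of the same gene only. With separate stretches required, the 633 control peaks became 355 (pieces under 1e-05), 348 (both lists) and 386 (joined), and the 427 *Wtap*-BKO peaks 202, 193 and 251. The control count was the larger under every setting tried, 1.16 to 1.54 times by entries and 1.40 to 1.80 times by separate stretches. The 1.40 came from leaving out peaks with a listed peak on the opposite strand. As ratios of the shares of peaks considered, these ranges were 1.11 to 1.56 and 1.44 to 1.79. From 600 to under 1200 bases the share with 2 or more entries was 24.9% in the control list, 21.1% merged or in separate stretches and 17.2% with strict pieces, and 20.2%, 16.3% and 12.6% in the *Wtap*-BKO list. At 1200 bases and over only the *Wtap*-BKO share with strict pieces, 43.8%, left the main interval. The median covered was 77.4% for control peaks over 2 or more entries, 72.2% merged or in separate stretches and 83.6% with strict pieces, and 85.2%, 74.1% merged, 73.9% in separate stretches and 93.2% for *Wtap*-BKO peaks. The share of broken control peaks whose piece ranked lower by fold enrichment was 72.4% with the piece of smallest false discovery rate and 68.6% with the piece of highest fold enrichment. Of 44 named peaks, 2 had fewer than 2 pieces with at least 30 shared bases, 7 with entries merged and 9 with strict pieces.

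The settings on separate stretches were chosen after the data were seen. With 1 pooled sample per genotype leaving out a replicate was not possible. No paired analysis was possible because each group has 1 sample and the labels carry no replicate numbers. The depth of the lists is unknown, so depth and genotype cannot be told apart. The motif was not run.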
